A study of Mus musculus with 24 samples.

Results

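The AP-1 transcription factor genes are described here in HL-1 cells, a mouse cell line derived from atrial cardiomyocytes, after cyclic stretch and knockdown of MuRF1. The 8 genes were taken by name from a table of 20351 genes: Fos, Fosb, Fosl1 and Fosl2 of the Fos family, Jun, Junb and Jund of the Jun family, and Atf3. All 8 were in the table, and all 8 were among the 14411 genes with enough reads to be tested.

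AP-1 proteins bind DNA as pairs held together by a leucine zipper. Fos proteins pair with Jun proteins and do not form stable pairs among themselves, whereas Jun proteins can also pair with each other and with ATF proteins such as Atf3. Several of these genes are immediate early genes, transcribed within minutes of a signal through MAP kinases, and Fos and Jun are classical genes of this kind in cardiomyocytes under mechanical load.

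The samples formed 4 groups of 6 libraries. Stretched knockdown cells and non-stretched knockdown cells were transduced with an adenovirus carrying a short hairpin RNA against MuRF1, the ubiquitin ligase that the Trim63 gene encodes. Stretched control cells and non-stretched control cells received an adenovirus with a scrambled hairpin. All cells therefore carried adenovirus, at 30 MOI for 48 h, and had been moved to serum-free medium. Stretch was cyclic at 15% and 1 Hz and lasted 60 min, and RNA was taken straight afterwards. Its geometry is given as uniaxial in the protocol and as biaxial in the sample characteristics. All cells were of 1 line, and no label states whether replicates were separate cultures, so the p-values reflect the spread among these libraries alone, and that spread may be technical. A number in the library description was the same within a group and differed between groups, so if it marks a plate or batch, batch and group cannot be told apart. The study asked, by its title, what part MuRF1 has in the response of cardiomyocyte transcripts to stretch.

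Library totals ran from 23.6 to 54.8 M estimated counts; the lowest was stretched control replicate 5, and the next lowest library had 37.7 M. That library also stood apart from the others on the second principal component. The numbers of AP-1 genes that passed, their passing stretch values in control cells and the Fosb interaction are given below with and without it. The knockdown was visible in Trim63, which averaged 68.5 CPM (the count scaled to library size by TMM) in stretched knockdown cells and 781 CPM in stretched control cells, 91.2% lower, and 55.7 CPM in non-stretched knockdown cells and 640 CPM in non-stretched control cells, 91.3% lower (two-sided exact permutation test over 924 divisions, p = 0.00216 for each, the smallest possible). The 12 cardiomyocyte markers listed for this work summed to 1145 to 1324 CPM in knockdown libraries and 2226 to 2806 CPM in control libraries. Of the 11 tested, 9 fell and 1 rose in each knockdown comparison, and Nppa and Sln were under 1 CPM in all 24 libraries. The 8 fibroblast markers summed to 79.9 to 101 CPM in knockdown libraries and 216 to 250 CPM in control libraries, with Col1a2, Lum and Tcf21 near 0. The 6 macrophage markers, 5 of them in the table, summed to 2.99 to 4.03 CPM in stretched and 2.20 to 2.88 CPM in non-stretched knockdown libraries, and to 2.23 to 3.67 CPM in stretched and 1.56 to 2.06 CPM in non-stretched control libraries, with Adgre1, Csf1r, Lyz2 and Itgam under 1 CPM. The 6 endothelial markers summed to at most 10.2 CPM. In bulk RNA, fewer cells of a type and less RNA per cell cannot be told apart. The part of these marker differences in the stretch and knockdown results was not tested.

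The sequences just before the RefSeq start sites of 4 of these genes are shown because these genes gave the results that the following paragraphs turn on: Fosb, which rose with stretch in knockdown cells and whose response there differed from that in control cells, Jun and Atf3, which rose with stretch in both, and Fos, the relative of Fosb that did not pass. Each is 250 bases of build GRCm38.p6, read 5' to 3' on the gene's own strand and ending at the base before the start site. Capitals mark matches to the motifs named after the sequences. Fosb lies at chr7:19310046-19310295 (minus strand), Fos at chr12:85473640-85473889 (plus strand), Jun at chr4:95052223-95052472 (minus strand) and Atf3 at chr1:191183334-191183583 (minus strand).
Fosb: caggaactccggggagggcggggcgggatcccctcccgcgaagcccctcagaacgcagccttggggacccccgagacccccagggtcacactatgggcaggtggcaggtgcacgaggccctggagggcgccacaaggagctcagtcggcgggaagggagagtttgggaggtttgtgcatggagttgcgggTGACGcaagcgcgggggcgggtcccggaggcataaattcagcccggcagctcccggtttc
Fos: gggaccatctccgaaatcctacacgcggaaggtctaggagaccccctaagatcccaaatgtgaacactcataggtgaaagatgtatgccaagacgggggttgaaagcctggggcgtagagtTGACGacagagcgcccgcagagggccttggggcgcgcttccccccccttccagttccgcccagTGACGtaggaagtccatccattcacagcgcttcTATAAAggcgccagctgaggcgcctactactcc
Jun: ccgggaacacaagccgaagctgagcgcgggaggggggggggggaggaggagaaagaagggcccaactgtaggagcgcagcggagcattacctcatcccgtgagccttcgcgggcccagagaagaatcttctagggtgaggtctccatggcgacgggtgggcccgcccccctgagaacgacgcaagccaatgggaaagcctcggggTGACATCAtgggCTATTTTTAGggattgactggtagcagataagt
Atf3: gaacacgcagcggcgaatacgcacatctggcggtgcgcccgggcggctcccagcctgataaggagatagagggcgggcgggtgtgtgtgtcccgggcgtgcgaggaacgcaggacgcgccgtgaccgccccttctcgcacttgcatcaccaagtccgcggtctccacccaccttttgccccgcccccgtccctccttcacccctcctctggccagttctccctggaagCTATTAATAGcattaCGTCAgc
RefSeq gave such a sequence for 7 of the 8 genes, Fosl1 being the other. Both strands were searched for TGANTCA, the AP-1 site, for TGACNTCA, a form of the cAMP response element, for TGACG, its 5-base core, which overlaps TGACNTCA where N is G, for TATAAA, and for the CArG box and the MEF2 box by name. The Fosb window held TGACG at -60 to -56, counted back from the start site. The Fos window held TGACG at -129 to -125 and at -66 to -62, and TATAAA at -33 to -28. The Jun window held TGACATCA at -45 to -38, and a MEF2 box at -33 to -24. The Atf3 window held TGACG on the other strand at -7 to -3, and a MEF2 box at -22 to -13. The Junb window held TGACG at -106 to -102, and the windows of Fosl2 and Jund held none of these motifs. RefSeq start sites did not always match the gene positions given below. The Jund window, chr8:70697489-70697738, lay wholly upstream of that gene's start at 70698949. The Fosl2 window, chr5:32136222-32136471, lay inside the gene, which starts at 32135801, and the Atf3 window also lay inside its gene. Sequence just before the gene starts of Jund, Fosl2 and Atf3 was not searched. Among 32851 windows of the same length, 17.8% held TGACG, 12.4% TATAAA, 7.49% TGACNTCA, 6.75% TGANTCA, 1.69% a MEF2 box and 1.47% a CArG box. A match describes the letters of the window and is not evidence of binding. Sequence outside the 250 bases was not searched, so a motif missing from a window can lie elsewhere at the gene.

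Stretch raised 5 of the 8 genes in knockdown cells and 4 of the 8 in control cells, and lowered none (0 also at an unadjusted p under 0.05, with limma-voom and with DESeq2). Fosl2, Jun, Jund and Atf3 rose in both kinds of cell, and Fosb rose in knockdown cells. Knockdown raised Fosl1, Jun, Jund and Atf3 and lowered Fosl2, with stretch and without it, and raised Fosb and Junb in stretched cells. Fos did not pass in any comparison. Here a gene passed when its adjusted p was under 0.05 in edgeR's quasi-likelihood test, with Benjamini-Hochberg adjustment over all 14411 genes.

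Across all genes tested, 8.93% passed for stretch in knockdown cells and 5.95% for stretch in control cells. The median log2 fold change of the 8 genes was 0.52 in knockdown cells and 0.25 in control cells, against -0.01 over all genes in each. For knockdown the background was far larger: 52.0% of all genes passed with stretch and 57.8% without it, against 7 and 5 of the 8 genes. The share of the 8 genes that passed for knockdown is therefore not a result about these genes, and their values are the information. The 4 comparisons share groups with each other, so a group that stands high enters 2 of them. Without stretched control replicate 5, the numbers of the 8 genes that passed were the same in all 4 comparisons, 5 and 4 for stretch and 7 and 5 for knockdown. The background was then larger. Over all genes, 1930 passed for stretch in knockdown cells and 2023 in control cells, against 1287 and 857 with all libraries. For knockdown, 8017 passed with stretch and 8888 without it, against 7494 and 8325. Without that library, the log2 fold changes with stretch in control cells were 0.62 for Jun, 0.58 for Atf3, 0.34 for Fosl2 and 0.30 for Jund.

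**Figure D1:**
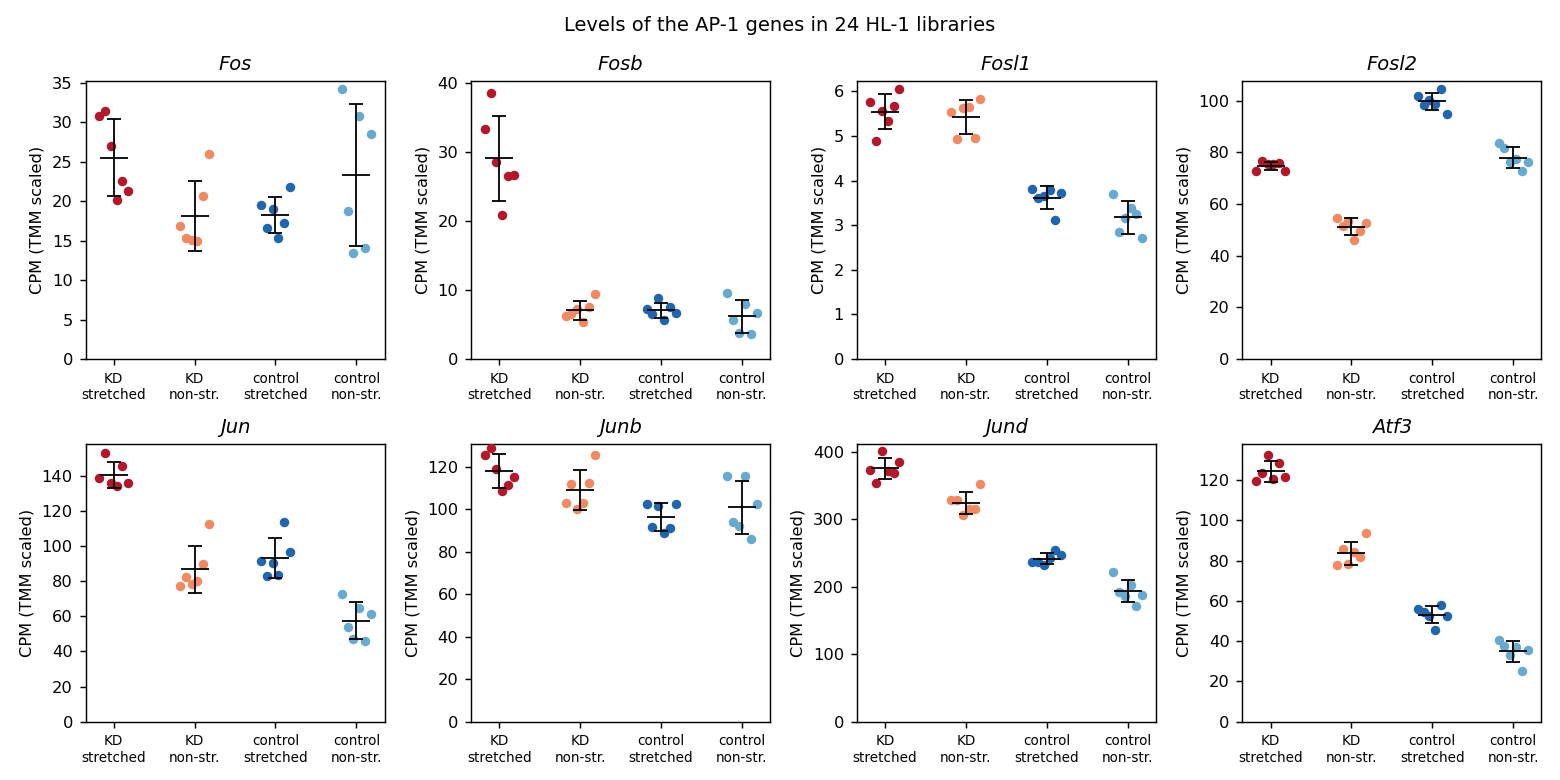
Levels of the 8 genes in each library (points, CPM after TMM scaling, linear axes from 0), with the group mean and SD (bars, n = 6). Fosb was at 20.8 CPM or more in all 6 stretched knockdown libraries and at 9.59 CPM or less in the other 18; Atf3 stepped through 4 groups that did not overlap.

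Per length of transcript, Jund was the most abundant of the 8 in every group and Fosl1 or Fosb the least. In stretched knockdown cells the mean levels were 225 CPM per kb for Jund, 65.2 for Junb, 62.7 for Atf3, 44.0 for Jun, 12.1 for Fos, 11.4 for Fosl2, 7.68 for Fosb and 2.97 for Fosl1. In non-stretched knockdown cells they were 194 CPM per kb for Jund, 60.3 for Junb, 42.1 for Atf3, 27.2 for Jun, 8.60 for Fos, 7.85 for Fosl2, 2.91 for Fosl1 and 1.87 for Fosb. The steps from Junb to Atf3 in stretched knockdown cells, and from Fos to Fosl2 in both kinds of knockdown cell, were smaller than the spread between replicates. In stretched control cells the mean levels were 145 CPM per kb for Jund, 53.3 for Junb, 29.2 for Jun, 26.8 for Atf3, 15.3 for Fosl2, 8.66 for Fos, 1.94 for Fosl1 and 1.87 for Fosb. In non-stretched control cells they were 116 CPM per kb for Jund, 55.8 for Junb, 18.0 for Jun, 17.6 for Atf3, 11.9 for Fosl2, 11.0 for Fos, 1.70 for Fosl1 and 1.63 for Fosb. There, Jun and Atf3, Fosl2 and Fos, and Fosl1 and Fosb each differed by less than their spread, as did Jun and Atf3, and Fosl1 and Fosb, in stretched control cells. Fosb thus ranked above Fosl1 in stretched knockdown cells and at or below it in the other groups. Together the 8 genes took 0.0929% of all counts in stretched knockdown cells, 0.0717% in non-stretched knockdown cells, 0.0591% in stretched control cells and 0.0475% in non-stretched control cells (means of 6).

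Fosb (ENSMUSG00000003545, chr7:19302696-19310051, minus strand, 4 exons) encodes a Fos family protein, and a splice form that lacks its transactivating end is known as delta FosB; the table gives 1 value per gene and does not separate them. Its lowest, median and highest levels were 20.8, 27.6 and 38.5 CPM in stretched knockdown cells, and 5.41, 6.93 and 9.45 CPM in non-stretched knockdown cells. In stretched control cells they were 5.59, 6.98 and 8.87 CPM, and in non-stretched control cells 3.57, 6.15 and 9.59 CPM. The stretched knockdown libraries lay above all 18 others, and those 18 overlapped one another. With stretch, Fosb rose 4.10-fold in knockdown cells, or 2.04 on the log2 scale (SE 0.191, adjusted p = 2.95e-07), the fifth largest change in size of the 14411 genes. In control cells the change was 1.13-fold with a 95% interval of 0.832 to 1.52 and did not pass (adjusted p = 0.698). Knockdown raised Fosb 4.14-fold in stretched cells, or 2.05 on the log2 scale (SE 0.193, adjusted p = 4.21e-09), and without stretch the fold was 1.14 with an interval of 0.842 to 1.53 (adjusted p = 0.472).

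The stretch response of Fosb differed between the 2 kinds of cell. The interaction, which is the stretch response in knockdown cells minus that in control cells, was 1.87 on the log2 scale (SE 0.284, 95% interval 1.28 to 2.45, adjusted p = 0.0181). It had the smallest p of all genes tested. Over all genes, 3 passed, 0.0208% of those tested, the others being Pdzd2 (0.38, adjusted p = 0.0222) and Dkk3 (0.31, adjusted p = 0.0301). Without stretched control replicate 2 the Fosb interaction was 1.84 with an adjusted p of 0.0549, and without non-stretched control replicate 6 it was 1.84 with an adjusted p of 0.0510, so it missed the threshold in 2 of the 24 fits that each left out 1 library. In the other 22, and in the 8 other alternatives, it passed, with values of 1.69 to 1.99. Without stretched control replicate 5 the Fosb interaction was 1.88 (adjusted p = 0.0149).

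Fos (ENSMUSG00000021250, chr12:85473890-85477273, plus strand, 4 exons), the founding member of the family, varied widely within groups. Its lowest, median and highest levels were 20.1, 24.8 and 31.5 CPM in stretched knockdown cells, and 14.9, 16.1 and 25.9 CPM in non-stretched knockdown cells. In stretched control cells they were 15.4, 18.1 and 21.7 CPM, and in non-stretched control cells 13.4, 23.6 and 34.2 CPM. The groups overlapped in each comparison, and the non-stretched control libraries covered the whole range of the others, with a coefficient of variation of 38.7%. The log2 fold change with stretch was 0.50 (SE 0.210, adjusted p = 0.157) in knockdown cells and -0.36 (SE 0.213, adjusted p = 0.355) in control cells. Neither passed, and nor did their difference of 0.85 (SE 0.299, 95% interval 0.23 to 1.47, unadjusted p = 0.00954, adjusted p = 0.344). Knockdown gave 0.48 with stretch (SE 0.212, adjusted p = 0.0603) and -0.37 without it (SE 0.211, adjusted p = 0.145). The first passed when only the groups compared were fitted (adjusted p = 0.00278), with limma-voom (0.0456), with DESeq2 (0.0396) and in 5 of the 24 fits that left out 1 library: stretched knockdown replicate 4, non-stretched knockdown replicate 6, or non-stretched control replicate 1, 3 or 5. The second passed without non-stretched control replicate 3 (-0.48, adjusted p = 0.0446) or replicate 5 (-0.48, adjusted p = 0.0483).

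Fosl1 (ENSMUSG00000024912, chr19:5447547-5455946, plus strand, 4 exons), which encodes Fra-1 and is itself an AP-1 target in many cells, had the fewest counts of the 8, down to 76 in a library. It ranged over 4.89 to 6.06 CPM in stretched knockdown cells, 4.94 to 5.84 CPM in non-stretched knockdown cells, 3.11 to 3.81 CPM in stretched control cells and 2.70 to 3.70 CPM in non-stretched control cells. All 12 knockdown libraries lay above all 12 control libraries, and stretched and non-stretched libraries overlapped. Knockdown raised it by 0.61 on the log2 scale with stretch (SE 0.0749, adjusted p = 9.90e-08) and by 0.77 without it (SE 0.0754, adjusted p = 1.33e-09). Stretch gave 0.03 in knockdown cells (adjusted p = 0.840) and 0.19 in control cells (adjusted p = 0.153), and the interaction was -0.16 (adjusted p = 0.686). Fosl1 shares 1163 exon bases with Ccdc85b on the opposite strand, and whether the counting used strand is not given in the sources used here. Ccdc85b fell with knockdown, by 0.33 with stretch and by 0.31 without it on the log2 scale.

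Fosl2 (ENSMUSG00000029135, chr5:32135801-32157842, plus strand, 4 exons), which encodes Fra-2, was the one gene of the 8 that knockdown lowered. Its lowest, median and highest levels were 72.8, 75.4 and 76.5 CPM in stretched knockdown cells, and 45.9, 52.2 and 54.6 CPM in non-stretched knockdown cells. In stretched control cells they were 95.05, 99.5 and 105 CPM, and in non-stretched control cells 72.6, 76.9 and 83.6 CPM. Stretched libraries lay above non-stretched ones in both kinds of cell, and knockdown libraries lay below control libraries with and without stretch. The levels in stretched knockdown cells lay within the range of those in non-stretched control cells. Stretch raised Fosl2 by 0.54 in knockdown cells (SE 0.0372, adjusted p = 5.18e-10), the smallest p of all genes tested in that comparison, and by 0.35 in control cells (SE 0.0365, adjusted p = 1.28e-06), the fourth smallest. Knockdown gave -0.41 with stretch (SE 0.0366, adjusted p = 1.90e-10) and -0.61 without it (SE 0.0372, adjusted p = 7.59e-14). The interaction was 0.19 (SE 0.0521, unadjusted p = 0.00112) and did not pass (adjusted p = 0.163, and 0.0508 to 0.438 when 1 library was left out).

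**Figure D2:**
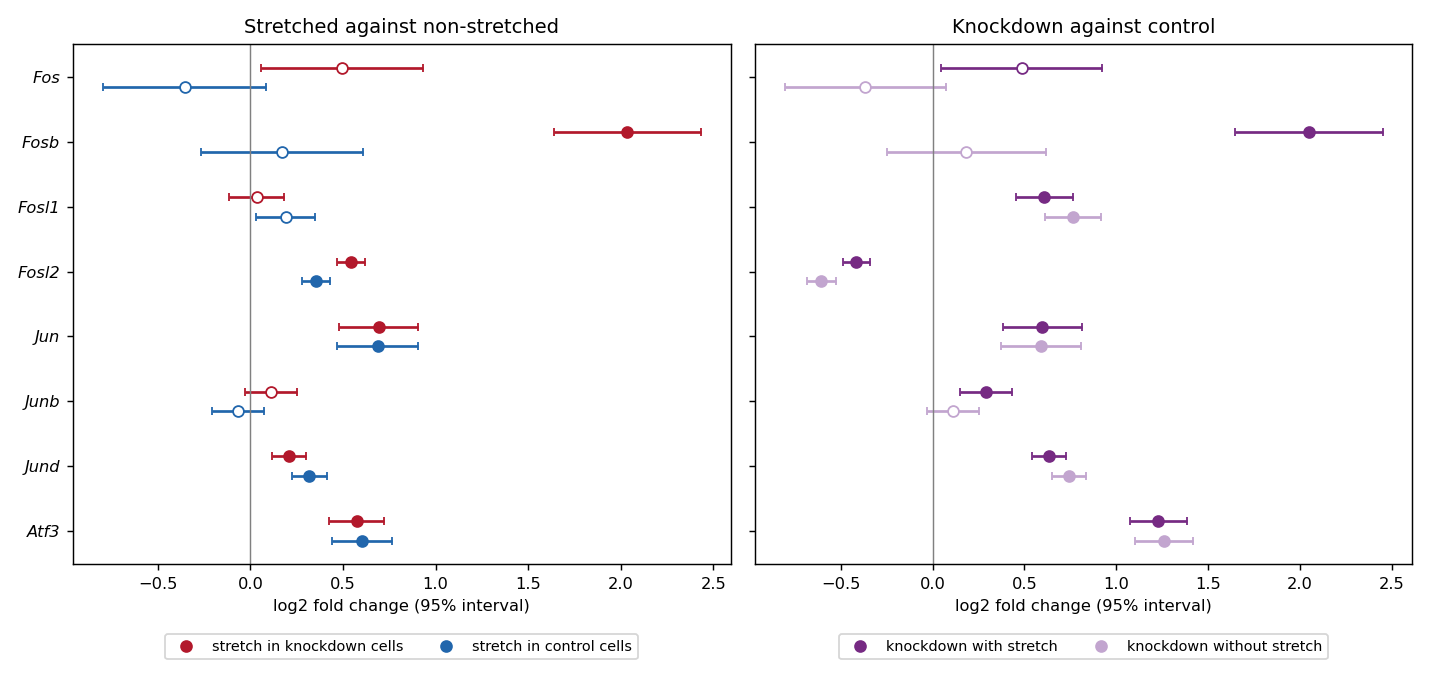
Log2 fold changes of the 8 genes with 95% intervals, for stretch against no stretch in knockdown and control cells (left) and for knockdown against control with and without stretch (right). Filled points passed at an adjusted p under 0.05 and open points did not; Fosb reached 2.04 and 2.05 in the comparisons that hold stretched knockdown cells, and Fosl2 was the one gene left of 0 among the called knockdown values.

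The Fos family as a whole differed between groups in its sum and in its make-up, which are described here without a test. The 4 genes together averaged 34.2 ± 3.82 CPM per kb in stretched knockdown cells, 21.2 ± 2.62 in non-stretched knockdown cells, 27.7 ± 1.24 in stretched control cells and 26.3 ± 5.33 in non-stretched control cells (n = 6 each, ± SD). The sum in stretched knockdown libraries, 29.4 to 39.4, lay above that in stretched control libraries, 25.9 to 28.8, and overlapped that in non-stretched control libraries, 20.5 to 33.5. Fosb made up 22.2% of this sum in stretched knockdown cells, 8.77% in non-stretched knockdown cells, 6.72% in stretched control cells and 6.02% in non-stretched control cells. Its lowest share in a stretched knockdown library was 18.7%, and its highest in any other library was 9.61%. Fosl2 made up 33.8% in stretched knockdown cells, 37.3% in non-stretched knockdown cells, 55.1% in stretched control cells and 46.7% in non-stretched control cells. Fosl2 was thus the largest part of the family in each stretched control library, with 50.8% or more, while in the other groups its share and that of Fos overlapped between libraries. These shares are of RNA, and the amounts of protein and of AP-1 pairs were not measured.

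**Figure D3:**
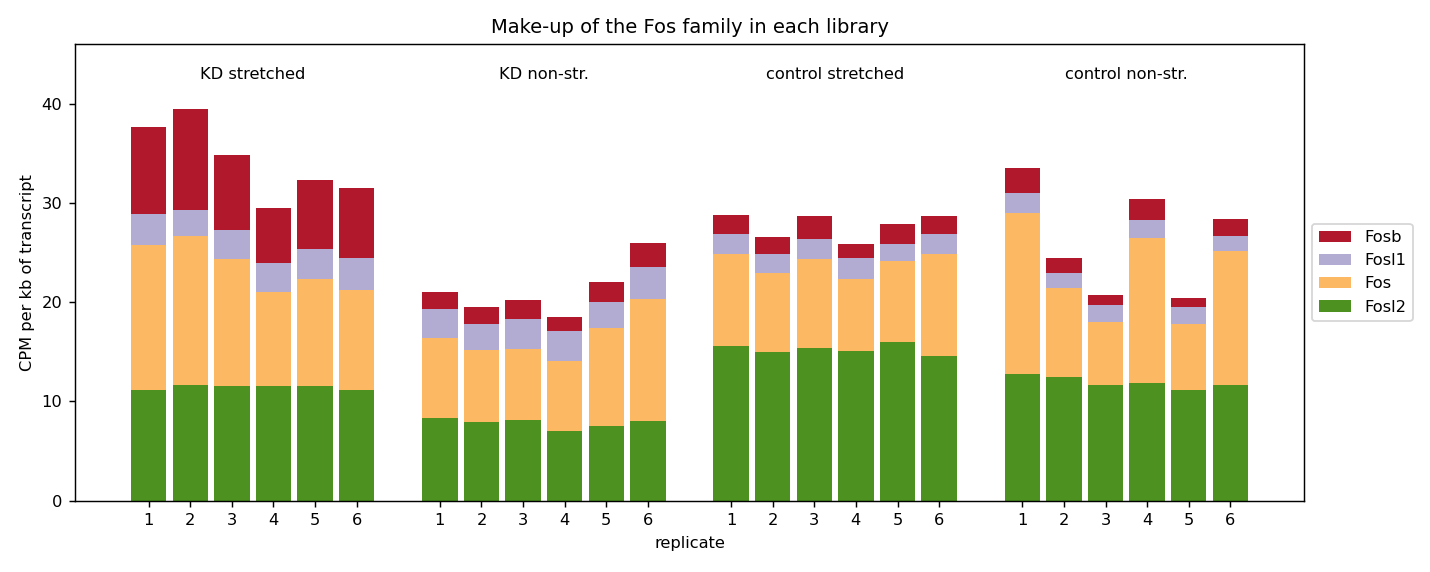
Levels of the 4 Fos family genes stacked for each library (CPM per kb of transcript, linear axis from 0), by group and replicate. Fosb, the top segment, is 18.7% or more of the bar in stretched knockdown libraries and 9.61% or less elsewhere, and the Fos segment varies most among non-stretched control libraries.

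Jun (ENSMUSG00000052684, chr4:95049034-95052222, minus strand, 1 exon), the founding member of the Jun family and a strong activator of transcription, rose with both stretch and knockdown. Its lowest, median and highest levels were 134, 137 and 153 CPM in stretched knockdown cells, and 77.4, 81.2 and 112 CPM in non-stretched knockdown cells. In stretched control cells they were 82.8, 91.0 and 114 CPM, and in non-stretched control cells 46.1, 57.5 and 72.7 CPM. The groups did not overlap in any of the 4 comparisons, and those of non-stretched knockdown and stretched control cells did. Stretch raised Jun 1.62-fold in knockdown cells (log2 0.69, SE 0.103, adjusted p = 0.000103) and 1.61-fold in control cells (log2 0.69, SE 0.105, adjusted p = 0.000344). The interaction was 0.01 (95% interval -0.30 to 0.31, adjusted p = 0.996), which leaves room for a difference of up to 0.31 either way. Knockdown raised Jun 1.51-fold in stretched cells (adjusted p = 3.19e-05) and 1.51-fold in non-stretched cells (adjusted p = 3.97e-05). Jun shares 232 exon bases with the antisense gene Junos, whose reads cannot be told apart from those of Jun without strand.

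Junb (ENSMUSG00000052837, chr8:84974484-84978718, minus strand, 1 exon), which can oppose Jun at some targets, changed little. It ranged over 109 to 129 CPM in stretched knockdown cells, 99.8 to 125 CPM in non-stretched knockdown cells, 88.7 to 103 CPM in stretched control cells and 86.0 to 116 CPM in non-stretched control cells. The ranges overlapped except between stretched knockdown and stretched control cells. Knockdown raised it 1.22-fold in stretched cells (log2 0.29, SE 0.0685, adjusted p = 0.000842), and without stretch the log2 fold change was 0.11 (adjusted p = 0.167). Stretch gave 0.11 in knockdown cells (adjusted p = 0.357) and -0.07 in control cells (adjusted p = 0.627). Junb shares 173 exon bases with Prdx2 on the opposite strand, which fell by 0.21 with knockdown in stretched cells and by 0.28 without stretch on the log2 scale.

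Jund (ENSMUSG00000071076, chr8:70698949-70700616, plus strand, 1 exon), known as the more constantly expressed Jun gene, rose modestly with stretch and more with knockdown, with little spread. It ranged over 353 to 401 CPM in stretched knockdown cells, 306 to 353 CPM in non-stretched knockdown cells, 233 to 255 CPM in stretched control cells and 172 to 222 CPM in non-stretched control cells. The groups did not overlap in any of the 4 comparisons, though the highest non-stretched knockdown library, at 352.9 CPM, came close to the lowest stretched one, at 353.4 CPM. Stretch raised Jund 1.16-fold in knockdown cells (log2 0.21, SE 0.0446, adjusted p = 0.00293) and 1.25-fold in control cells (log2 0.32, SE 0.0449, adjusted p = 8.63e-05). Knockdown raised it 1.55-fold with stretch (adjusted p = 1.96e-12) and 1.67-fold without it (adjusted p = 5.46e-14). Jund shares 877 exon bases with the antisense gene Gm11175, so its counts carry the same uncertainty as those of Jun. The 3 Jun genes together averaged 334 ± 8.44 CPM per kb in stretched knockdown cells, 282 ± 18.2 in non-stretched knockdown cells, 227 ± 8.15 in stretched control cells and 190 ± 19.7 in non-stretched control cells (n = 6 each, ± SD). Jund made up 67.3% of this sum in stretched knockdown cells, 69.0% in non-stretched knockdown cells, 63.8% in stretched control cells and 61.2% in non-stretched control cells.

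Atf3 (ENSMUSG00000026628, chr1:191170296-191218039, minus strand, 4 exons), a stress-induced factor that pairs with Jun proteins and acts as a repressor when paired with itself, had the largest knockdown effect of the 8 without stretch. Its lowest, median and highest levels were 119.7, 123 and 133 CPM in stretched knockdown cells, and 78.0, 82.9 and 93.6 CPM in non-stretched knockdown cells. In stretched control cells they were 45.6, 53.5 and 57.8 CPM, and in non-stretched control cells 25.3, 36.4 and 40.7 CPM. The 4 groups did not overlap, and the non-stretched knockdown libraries lay above the stretched control libraries. Stretch raised Atf3 1.49-fold in knockdown cells (log2 0.57, SE 0.0731, adjusted p = 1.24e-05) and 1.52-fold in control cells (log2 0.60, SE 0.0774, adjusted p = 3.83e-05). Knockdown raised it 2.34-fold in stretched cells (log2 1.23, SE 0.0750, adjusted p = 3.75e-13) and 2.39-fold in non-stretched cells (log2 1.26, SE 0.0766, adjusted p = 2.73e-13). The interaction was -0.03 (95% interval -0.25 to 0.19, adjusted p = 0.970), so that a difference between the stretch responses of more than about 0.25 either way lies outside its interval. The cardiomyocyte marker sum was lower in knockdown libraries for all these knockdown values, and its part in them was not tested.

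**Figure D4:**
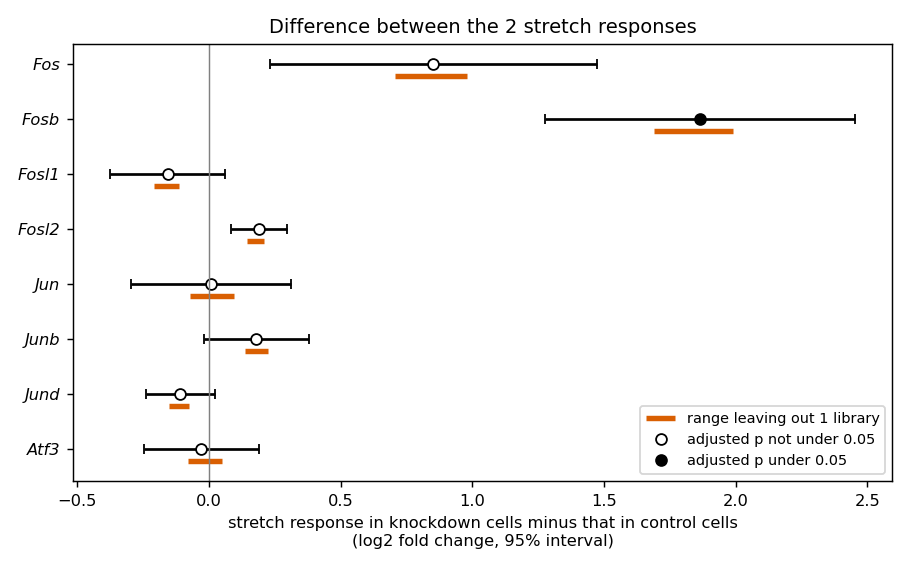
Stretch response in knockdown cells minus stretch response in control cells for the 8 genes (log2 fold change with 95% interval, 24 libraries), with the range of the value when each library was left out in turn (orange). Fosb, at 1.87, is the filled point that passed; the intervals of Fos and Fosl2 lie above 0, but neither passed after adjustment over all genes, and Jun and Atf3 lie near 0.

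The order of replicates within a group was alike for some of these genes in some groups. Among stretched knockdown libraries, replicates 2, 1 and 3 were the 3 highest, in that order, for Fos, Fosb and Junb, and replicate 4 was the lowest, whereas for Jun the 3 highest were replicates 2, 5 and 1. In non-stretched knockdown cells, replicate 6 was the highest for all of the 8 genes but Fosl2. Among stretched control libraries the orders differed: the 3 highest were replicates 6, 1 and 3 for Fos and Junb, 3, 5 and 1 for Fosb, and 5, 6 and 1 for Jun. Among non-stretched control libraries, replicates 1, 4 and 6 were the 3 highest for Fos, Fosb, Jun and Junb. The coefficient of variation of Fosb in non-stretched control cells was 38.3%, against 5.16% for Fosl2 and 12.4% for Junb in the same libraries.

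The library description also carries a letter, a for replicates 1 to 3 and b for replicates 4 to 6 of each group, whose meaning is not stated. In stretched knockdown cells Fosb was at 28.5 to 38.5 CPM under a and at 20.8 to 26.6 CPM under b, and Fos was at 27.0 to 31.5 CPM under a and at 20.1 to 22.6 CPM under b. The stretched knockdown libraries thus split by letter for both genes. They also split for Junb, at 119 to 129 CPM under a and at 109 to 115 CPM under b. The stretched control libraries split for Jund, at 233 to 237 CPM under a and at 242 to 255 CPM under b. In non-stretched knockdown cells Fosb was at 6.24 to 7.28 CPM under a and at 5.41 to 9.45 CPM under b, so that its rise with stretch was seen within each letter. For Fos, the stretched knockdown libraries lay above the non-stretched ones under a, where non-stretched libraries were at 15.0 to 16.9 CPM, and overlapped them under b, where they were at 14.9 to 25.9 CPM. With the letter as a term in the fit, the Fosb interaction was 1.86 (adjusted p = 0.0161) and that of Fos was 0.85 (adjusted p = 0.306).

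The genes whose pattern over the 24 libraries lay nearest to each member were found among 11422 genes by the root mean square difference of centred log2 CPM. For Fosb they were Cyr61 and Ctgf, both matricellular genes, and Dusp5, a phosphatase of ERK, at 0.63, 0.63 and 0.66, against a spread of Fosb itself of 0.98 about its mean. Even the nearest gene lacked the step seen in Fosb: Cyr61 changed by 0.32 with stretch in knockdown cells and by 0.19 in control cells on the log2 scale, where Fosb changed by 2.04 and 0.17. For Jun they were Dusp8, Dusp5 and Ctgf, at 0.17, 0.19 and 0.22 against 0.49. For Atf3 they were Ankrd1, a stretch-sensitive muscle ankyrin repeat gene, Amotl2 and Ctgf, at 0.19, 0.21 and 0.22 against 0.70. For Fosl2 they were Rasgef1b, Klf7 and Dusp10, at 0.12, 0.12 and 0.13 against 0.35. For Fosl1 they were Sgms2, Elf3 and Klrg2, each at 0.12 against 0.37. For Jund they were Gdf15, Sesn2 and Ppp1r15a, genes of the cellular stress response, each at 0.09 against 0.38.

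Other leucine zipper genes that can join AP-1 pairs or related ones were measured as a list of 18, of which 14 were tested. With stretch, 5 rose and 2 fell in knockdown cells, and 3 rose in control cells. These were 50% and 21.4% of those tested, against 8.93% and 5.95% of all genes. Maff, a small Maf factor, averaged 48.0 ± 1.65 CPM in knockdown cells with stretch and 39.2 ± 0.755 CPM in knockdown cells without it (log2 0.29, adjusted p = 2.95e-07), and rose by 0.15 in control cells (adjusted p = 0.00263). Mafk rose by 0.20 (adjusted p = 2.38e-05) in knockdown cells and by 0.14 (adjusted p = 0.00363) in control cells. Atf4, the main factor of the integrated stress response, averaged 620 ± 17.0 CPM in control cells with stretch and 533 ± 7.11 CPM in control cells without it (log2 0.22, adjusted p = 4.71e-06). Atf4 also rose with stretch in knockdown cells, by 0.10 (adjusted p = 0.0129). Ddit3, which Atf4 induces, was lower by 0.29 with stretch in knockdown cells (adjusted p = 0.00110). In control cells Ddit3 gave 0.04 with stretch and did not pass (adjusted p = 0.775). With knockdown, 5 rose and 4 fell in stretched cells, and 7 rose and 4 fell without stretch. Of those tested, 64.3% and 78.6% thus passed, against 52.0% and 57.8% of all genes. Crem, a cAMP response factor, averaged 9.69 ± 0.403 CPM in stretched knockdown cells and 7.02 ± 0.612 CPM in stretched control cells (log2 0.46, adjusted p = 1.22e-06). Nfe2l1 gave -0.30 with stretch and -0.34 without it, and Atf7 gave -0.26 and -0.28, all with adjusted p of 3.29e-07 or less.

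Of 12 factors known to act at the Fos and Jun promoters, 2 rose with stretch in knockdown cells and 1 in control cells. These were 16.7% and 8.33% of the list, against 8.93% and 5.95% of all genes. Srf, which binds CArG boxes with its ternary complex partners, averaged 156 ± 5.80 CPM in knockdown cells with stretch and 120.4 ± 7.64 CPM in knockdown cells without it, and 189.6 ± 8.67 CPM in control cells with stretch and 146 ± 11.1 CPM in control cells without it. Its log2 fold change was 0.37 in each, with adjusted p of 3.13e-06 in knockdown and 7.27e-06 in control cells. Mef2a rose by 0.15 in knockdown cells (adjusted p = 0.0464). With knockdown, 1 of the 12 rose and 6 fell, with stretch and without it. This was 58.3% of the list in each, near the 52.0% and 57.8% of all genes. Mef2a averaged 201 ± 6.20 CPM in stretched knockdown cells and 287 ± 22.2 CPM in stretched control cells (log2 -0.52, adjusted p = 2.93e-10), and Mef2c gave -0.42 (adjusted p = 3.21e-08). Mef2 factors are also cardiomyocyte genes, and the cardiomyocyte marker sum was lower in the same libraries. The part of that difference in the Mef2 values was not tested.

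Of 27 genes of the MAP kinase modules that act on AP-1, 26 were tested. With stretch, 1 rose and 1 fell in knockdown cells, and 2 fell in control cells. This was 7.69% of those tested in each, near the 8.93% and 5.95% of all genes. Map2k7, a kinase upstream of JNK, rose by 0.13 in knockdown cells (adjusted p = 0.00471). Map3k1 and Rps6ka1 were lower with stretch in control cells, with log2 fold changes of -0.20 (adjusted p = 0.00221) and -0.19 (adjusted p = 0.00164). These are RNA levels and say nothing of kinase activity. Knockdown lowered 12 and raised 3 in stretched cells, and lowered 13 and raised 4 without stretch. This was 57.7% and 65.4% of those tested, near the 52.0% and 57.8% of all genes. Mapk3, which encodes ERK1, averaged 173 ± 4.73 CPM in stretched knockdown cells and 224 ± 9.52 CPM in stretched control cells (log2 -0.38, adjusted p = 2.76e-11). Map3k5, the stress kinase ASK1, averaged 12.0 ± 0.665 CPM in stretched knockdown cells and 7.88 ± 0.473 CPM in stretched control cells (log2 0.61, adjusted p = 6.43e-11).

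Among 11 genes of mRNA decay and protein turnover that act on AP-1 transcripts or proteins, 3 rose and 1 fell with stretch in knockdown cells, and 1 fell in control cells. These were 36.4% and 9.09% of the list, against 8.93% and 5.95% of all genes. The 3 that rose were the paralogous genes Zfp36, Zfp36l1 and Zfp36l2, which encode proteins that bind AU-rich elements and speed the decay of early gene mRNAs. Zfp36 averaged 74.6 ± 2.64 CPM in knockdown cells with stretch and 53.6 ± 6.39 CPM in knockdown cells without it (log2 0.48, SE 0.0759, adjusted p = 0.000162). Zfp36l1 rose by 0.23 (adjusted p = 6.03e-05) and Zfp36l2 by 0.19 (adjusted p = 4.72e-07). In control cells the log2 fold changes with stretch were 0.09 for Zfp36 (adjusted p = 0.549), -0.02 for Zfp36l1 (adjusted p = 0.813) and 0.06 for Zfp36l2 (adjusted p = 0.0715). The difference between the stretch responses was 0.39 for Zfp36 (adjusted p = 0.177), 0.25 for Zfp36l1 (adjusted p = 0.0579) and 0.13 for Zfp36l2 (adjusted p = 0.0668), so that none passed with edgeR, while all 3 did with DESeq2. With knockdown, 5 of the 11 rose and 2 fell in stretched cells, and 4 rose and 3 fell without stretch. This was 63.6% of the list in each, against 52.0% and 57.8% of all genes. Zfp36l2 rose by 0.29 with stretch (adjusted p = 1.88e-12) and by 0.16 without it (adjusted p = 1.58e-07). Zfp36 rose by 0.25 with stretch (adjusted p = 0.00808) and was at -0.14 without it (adjusted p = 0.115). Zfp36l1 gave -0.42 with stretch (adjusted p = 3.98e-11) and was lower without it too, at 39.3 ± 1.48 CPM in non-stretched knockdown cells and 62.8 ± 2.65 CPM in non-stretched control cells (log2 -0.68, adjusted p = 1.56e-15).

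Of 32 genes widely described as AP-1 targets, 25 were tested, and 4 rose with stretch in knockdown cells, while 3 rose and 1 fell in control cells. Thbs1, the matricellular protein thrombospondin, averaged 74.3 ± 5.44 CPM in knockdown cells with stretch and 35.2 ± 3.50 CPM in knockdown cells without it (log2 1.08, SE 0.0893, adjusted p = 4.81e-08), and 83.2 ± 6.83 CPM in control cells with stretch and 53.8 ± 9.36 CPM in control cells without it (log2 0.63, SE 0.0874, adjusted p = 0.000112). Dusp1, a MAP kinase phosphatase, averaged 33.3 ± 2.28 CPM in knockdown cells with stretch and 22.9 ± 3.92 CPM in knockdown cells without it (log2 0.54, adjusted p = 0.000119). Dusp1 also rose with stretch in control cells, by 0.34 (adjusted p = 0.0170). Edn1, the precursor of endothelin, rose by 0.41 in knockdown cells (adjusted p = 0.0337). In control cells Hmox1 rose by 0.18 (adjusted p = 0.000167), and Tgfb1 was lower, at -0.17 (adjusted p = 0.0147). The share of those tested that passed was 16% in each kind of cell, against 8.93% and 5.95% of all genes. With knockdown, 9 rose and 7 fell in stretched cells, and 10 rose and 9 fell without stretch. These were 64% and 76% of those tested, against 52.0% and 57.8% of all genes, which also divided about evenly between rises and falls. Hbegf, a growth factor of the EGF family, averaged 8.98 ± 0.452 CPM in stretched knockdown cells and 4.61 ± 0.154 CPM in stretched control cells (log2 0.96, adjusted p = 1.51e-13). Gja1, which encodes connexin 43, averaged 56.7 ± 1.86 CPM in non-stretched knockdown cells and 100.03 ± 4.57 CPM in non-stretched control cells (log2 -0.82, adjusted p = 1.07e-17), and Ccnd1 gave -0.72 (adjusted p = 2.86e-11). Across the 88 tested genes of these 5 lists, 0 passed edgeR's interaction test, with 14 at an unadjusted p under 0.05, and 0 passed with limma-voom. With DESeq2, 6 passed: Atf4, Ddit3, Thbs1, Zfp36, Zfp36l1 and Zfp36l2. Over all 14411 genes, 3 passed edgeR's interaction test, 1355 were at an unadjusted p under 0.05, and 122 passed with DESeq2.

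**Figure D5:**
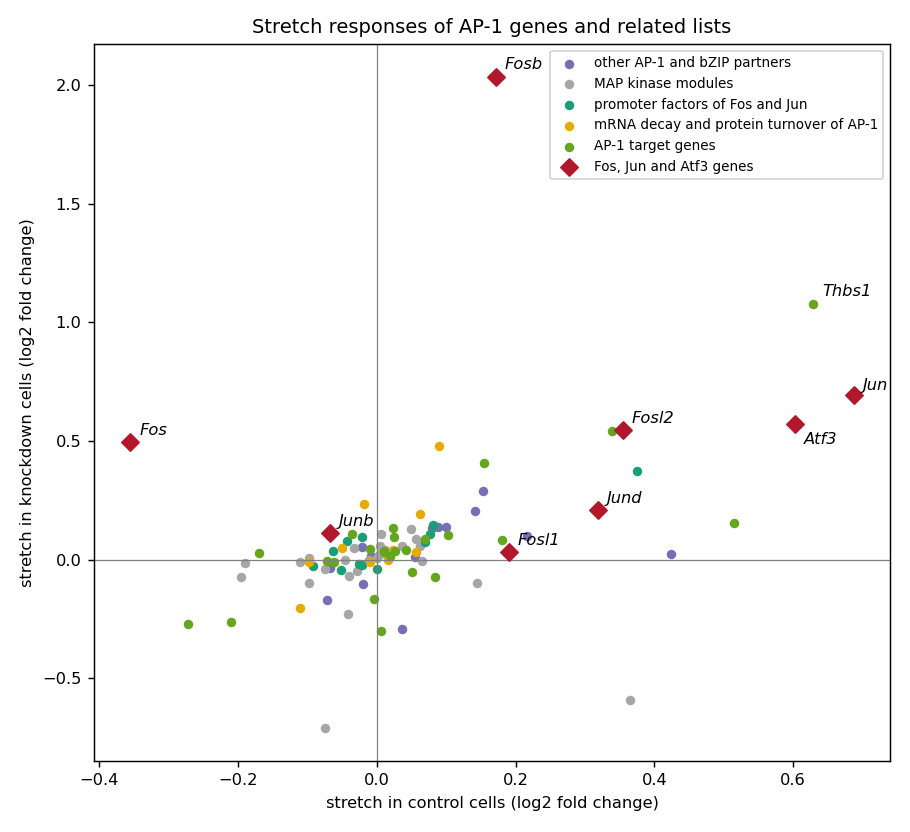
Stretch response of the 8 genes (diamonds) and of the tested genes of the 5 related lists (points, coloured by list), with the log2 fold change in control cells across and in knockdown cells up. Fosb lies far above the rest at 2.04 in knockdown cells and 0.17 in control cells, while Jun, Atf3, Fosl2 and Thbs1 lie high in both.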

How the data were processed

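Poly(A) RNA was sequenced from 24 HL-1 libraries in 4 groups of 6, taken from the sample titles. The authors deposited estimated counts per gene for 20351 genes, of which 36.6% of values were whole within 1e-09. Per the submitters' processing notes, the tools were kallisto 0.44.0, R 3.4.4 and DESeq2 1.18.1, with build GRCm38.p6; the sources used here do not give the annotation release. Another deposited table holds the authors' normalized signal, used only as an alternative scaling.

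The counts, rounded, were tested in R 4.3.3 using edgeR 4.0.16, with TMM scaling, filterByExpr (minimum count 10, minimum total 15) and a robust quasi-likelihood fit of 1 coefficient per group over all 24 libraries (20 residual degrees of freedom). Benjamini-Hochberg adjustment covered all 14411 genes, and a gene passed at an adjusted p under 0.05. The test was also run on counts simulated independently for each library, with no outlying library and no letter effect. That run cannot show how the test behaves with such features or with shared cultures. Levels are CPM after TMM scaling, computed from the deposited estimated counts. Per-length levels use the longest coding transcript in GENCODE vM21 on GRCm38, which also gave gene positions and overlaps. Fold changes are on the log2 scale, computed here from the deposited counts. Depth, at 23.6 to 54.8 M total counts, limits precision least for Jund and most for Fosl1. Spread between libraries also enters the SE. For stretch in knockdown cells the SE was 0.210 for Fos and 0.191 for Fosb, against 0.0720 for Fosl1, 0.0446 for Jund and 0.0372 for Fosl2.

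The 8 genes, the 5 related lists, the marker lists and the tests were chosen with earlier results of these data known. All 8 genes were named in every comparison. From each related list, up to 3 genes per comparison with the smallest adjusted p among those that passed were eligible to be named. For genes of the 8 that passed with a log2 fold change of at least 0.5 in size, the 3 nearest genes averaging at least 1 on the log2 CPM scale were named. Alternatives were other scalings, filters (none, or a minimum count of 50), a replicate block, a term for the library code letter, only the groups compared, limma-voom (limma 3.58.1), DESeq2 1.42.0 and leaving out each library. No pair among 60 replicate pairs was identical, and none had a chi-square per gene below 2.85.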

Additional observations from a re-analysis of the deposited data

Results flagged for a closer look

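The stretch response of Fosb was larger in knockdown cells than in control cells by 1.87 on the log2 scale, a difference between groups that passed edgeR's interaction test (adjusted p = 0.0181). In 2 of 32 sets of 6 libraries, 1 library stood far from the other 5, where chance gives about 1 in 20. Jun was at 112 CPM in non-stretched knockdown replicate 6, with the next library at 89.7 CPM. Fosl1 was at 3.11 CPM in stretched control replicate 5, the shallowest library, with the next at 3.60 CPM.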

How the results depend on the processing

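The 5 and 4 members that passed for stretch in knockdown and control cells were as many under each alternative. The stretch count over all genes in control cells was 563 with the authors' factors, 377 with only the groups compared, and 568 (without stretched control replicate 1) to 2023 (without stretched control replicate 5) with 1 library left out; in knockdown cells it was 856 (without stretched knockdown replicate 4) to 1930 (without stretched control replicate 5). The interaction count of 3 became 1 with the authors' factors, 45 with the code letter term, 122 with DESeq2, and 0 (without stretched control replicate 2 or non-stretched control replicate 6) to 109 (without stretched control replicate 5) with 1 library left out, where the members' count was 0 to 1. The cause was not tested. The Jun interaction turned to -0.0106 with no filter, to -0.00330 with the stricter filter and to -0.000844 with DESeq2, and ranged over -0.0719 to 0.0945 with 1 library left out; that of Atf3 ranged over -0.0792 to 0.0507. Little sign of pairing by replicate number was seen. Deviations of same-numbered libraries correlated at -0.06 to 0.14, over 0.1 in 1 of 24 pairs. Per comparison, 1 to 3 of 6 libraries correlated best with their own number. Such weak correlations cannot exclude a shared culture or day, which no label states. With the replicate block the interaction count was 9, and no member's call changed. Depth limits Fosl1 most, at 76 to 270 counts per library.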
